A study of Mus musculus with 18 samples.

Results

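Transcripts of 10 monocyte marker genes were followed in sorted long-term haematopoietic stem cells (LT-HSC) of mouse marrow: Lyz2, Lyz1, Ly6c2, Ccr2, Cx3cr1, Fcgr1, Fcgr3, Ly86, Ms4a6c and Clec12a. The genes were taken by symbol from a deposited table of 44349 genes, and all 10 were found in it. The study measured gene expression by RNA-seq in 18 libraries, 3 in each of 6 groups, from wild-type mice and from mice without DERARE, an enhancer element through which retinoic acid acts on the Hoxb genes from a distance. KO Reserve and WT Reserve are knockout and wild-type cells with the label reserve, which the labels do not explain. KO Wnt5a cells are knockout cells with Wnt5a, described as a rescue, and KO Ctrl cells are the knockout cells they are set against. Wnt5a cells are wild-type cells with Wnt5a, a ligand of noncanonical Wnt signalling, and WT cells are wild-type cells without it. How and for how long Wnt5a was given, the age of the mice, the type of deletion and the number of animals per library are not stated in the labels. The groups follow the sample titles, since the free-text descriptions of KO Ctrl and KO Reserve name wild type and knockout together. The series design gives 1 gate for the LT-HSC: lineage-negative, Sca-1+, c-Kit+, CD34-, Flk2- and low in CD49b.

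Monocytes are phagocytes of the blood that arise in the marrow from stem cells through myeloid progenitors. Classical monocytes carry Ly6C and the chemokine receptor CCR2, with which they leave the marrow, and patrolling monocytes carry little Ly6C and much of the fractalkine receptor CX3CR1. An LT-HSC gate is meant to leave mature myeloid cells out, so these genes are read in such libraries as a sign of myeloid transcripts, whichever cells hold them.

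The 10 genes fall by role into lysozymes, surface markers, chemokine receptors, Fc receptors and other membrane or secreted proteins. Lyz2 (chr10:117277331-117282321, minus strand in GRCm38, which is mm10) encodes lysozyme M, a bacteria-lysing enzyme of monocytes, macrophages and neutrophils, and its neighbour Lyz1 (chr10:117287797-117292868, minus strand) encodes the lysozyme of intestinal Paneth cells. Ly6c2 (chr15:75108158-75111970, minus strand) encodes the Ly6C antigen. Ccr2 (chr9:124101950-124113557, plus strand) and Cx3cr1 (chr9:119901616-120069879, minus strand) encode the receptors of Ccl2 and of fractalkine. Fcgr1 (chr3:96282909-96293969, minus strand) encodes the high-affinity IgG receptor CD64, and Fcgr3 (chr1:171051174-171064935, minus strand) the low-affinity activating receptor CD16. Ly86 (chr13:37345208-37419036, plus strand) encodes MD-1, the secreted partner of the Toll-like receptor relative Cd180. Ms4a6c (chr19:11469366-11482192, plus strand) encodes a protein of the Ms4a membrane family, and Clec12a (chr6:129342691-129365303, plus strand) an inhibitory C-type lectin receptor of myeloid cells.

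The promoter windows of 4 of the genes are shown because Lyz2 and Lyz1 pair a high with a nearly absent transcript, and Ly6c2 and Clec12a had large differences between the reserve libraries and the other libraries. Each window runs from 250 bases before to 50 bases after the start site and is read 5′ to 3′ on the gene's strand, from RefSeq on GRCm38.p6. The windows are chr10:117282223-117282522 on the minus strand for Lyz2, chr10:117292819-117293118 on the minus strand for Lyz1, chr15:75111922-75112221 on the minus strand for Ly6c2 and chr6:129349994-129350293 on the plus strand for Clec12a. Capitals mark matches on either strand to GAGGAA, a core bound by the myeloid factor PU.1, and to TTGCNNAA, a core of C/EBP factors.
Lyz2: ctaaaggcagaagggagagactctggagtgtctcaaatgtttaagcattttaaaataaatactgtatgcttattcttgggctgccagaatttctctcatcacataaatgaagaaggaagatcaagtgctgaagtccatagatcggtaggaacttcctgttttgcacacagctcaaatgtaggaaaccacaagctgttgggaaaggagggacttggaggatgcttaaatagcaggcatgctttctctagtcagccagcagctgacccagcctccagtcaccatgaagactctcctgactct
Lyz1: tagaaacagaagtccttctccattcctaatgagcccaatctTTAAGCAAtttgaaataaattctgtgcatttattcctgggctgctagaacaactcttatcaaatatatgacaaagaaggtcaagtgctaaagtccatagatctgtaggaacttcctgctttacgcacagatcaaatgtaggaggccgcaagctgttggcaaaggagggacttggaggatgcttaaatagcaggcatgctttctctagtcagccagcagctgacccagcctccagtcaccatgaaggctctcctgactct
Ly6c2: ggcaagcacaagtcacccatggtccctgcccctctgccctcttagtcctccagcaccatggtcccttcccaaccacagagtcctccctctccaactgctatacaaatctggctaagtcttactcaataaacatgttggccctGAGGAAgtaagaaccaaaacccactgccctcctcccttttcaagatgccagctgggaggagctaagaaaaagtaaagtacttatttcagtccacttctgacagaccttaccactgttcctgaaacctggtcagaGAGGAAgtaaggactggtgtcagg
Clec12a: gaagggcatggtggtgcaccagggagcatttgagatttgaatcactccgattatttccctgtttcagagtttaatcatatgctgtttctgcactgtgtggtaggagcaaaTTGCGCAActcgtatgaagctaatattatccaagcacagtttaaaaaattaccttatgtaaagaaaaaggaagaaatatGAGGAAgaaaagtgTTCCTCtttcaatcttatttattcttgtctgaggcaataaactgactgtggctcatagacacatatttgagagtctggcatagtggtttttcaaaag
The Lyz2 and Lyz1 windows were identical at 249 of 298 aligned bases (83.6%), while the C/EBP letters stood in the Lyz1 window and not in that of Lyz2. All 10 genes matched the RefSeq table. The PU.1 letters were found in 4 of the 10 windows (Clec12a, Fcgr1, Fcgr3 and Ly6c2), against 28.3% of 27025 promoters of the same length. The C/EBP letters were found in 3 (Clec12a, Fcgr3 and Lyz1), against 10.7% of promoters. The letters TGTGGT, a RUNX core, were found in 4 (Clec12a, Cx3cr1, Ly6c2 and Lyz2), against 16.9% of promoters. In the Clec12a window the C/EBP match began 140 bases before the start site and the PU.1 matches 61 and 47 bases before it. The 3 searched motifs do not overlap one another in their letters, and a match is a run of letters and not a measured binding site.

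Before any comparison, the reserve libraries stood apart from the other 12. The first principal component over the 18 libraries held 53.28% of the variance, and the positions of the libraries on it are not given here. Transcripts of LT-HSC and of the gate, 13 genes among them Procr, Hlf, Kit and Ly6a, summed to 95.1 to 97.8 FPKM (fragment counts divided by transcript length and by sequencing depth) in KO Reserve and 351 to 461 in WT Reserve. The same sum was 873 to 916 in KO Ctrl and 750 to 811 in WT. Much of the difference in wild type lay in Cd34, whose protein the gate leaves out: without it the sums were 83.2 to 88.2 FPKM in KO Reserve, 280 to 397 in WT Reserve, 479 to 503 in KO Ctrl and 409 to 449 in WT. Gene by gene, 7 of the 12 tested genes of this list were called higher and 4 lower in WT Reserve against WT. Of all tested genes 30.8% were higher and 27.9% lower there. In KO Reserve against KO Ctrl 1 was higher and 10 were lower, beside 24.8% and 40.4% of all tested genes. Flt3, which encodes the Flk2 that the gate leaves out, is among those higher in wild type (15.5 ± 3.15 FPKM in WT Reserve and 0.516 ± 0.24 in WT). It reached 1 FPKM in fewer than 3 libraries outside the reserve set, so the filter given below favoured a rise. Procr, which encodes a receptor used to purify LT-HSC, was at 1.19 to 1.65 FPKM in KO Reserve, 15.6 to 21.1 in WT Reserve, 3.38 to 7.92 in KO Ctrl and 4.02 to 5.44 in WT. Cd34 was at 8.3 to 14.6 FPKM in KO Reserve, 64.1 to 70.8 in WT Reserve, 371 to 437 in KO Ctrl and 341 to 370 in WT. Granulocyte transcripts ran from 2580 to 3860 FPKM in KO Reserve and from 4950 to 10800 in WT Reserve, beside 19.2 to 32.5 in KO Ctrl and 104 to 123 in WT. B cell transcripts ran from 1550 to 1890 FPKM in KO Reserve and from 2050 to 2390 in WT Reserve, beside 64.2 to 71.8 in KO Ctrl and 28.3 to 36.4 in WT. Erythroid transcripts ran from 3190 to 3580 FPKM in KO Reserve and from 2330 to 3710 in WT Reserve, beside 435 to 533 in KO Ctrl and 401 to 461 in WT. Megakaryocyte transcripts went the other way, from 78.0 to 133 FPKM in KO Reserve and from 173 to 180 in WT Reserve. They ran from 11500 to 19800 FPKM in KO Ctrl and from 20900 to 30800 in WT. The reserve libraries thus carried granulocyte, B cell and erythroid transcripts, and these go against a pure LT-HSC label in both genotypes. The purity of the libraries outside the reserve set was not tested. The columns of the reserve libraries also carry another name prefix, derarefl, where the rest have derareko or derarewt. Whether the knockout cells of both sets carry the same deletion cannot be read from the labels, which do not state its type. The reserve label and a separate set of libraries thus cannot be told apart. In these bulk libraries fewer cells of a type and less RNA per cell cannot be told apart either. Xist, the RNA of the inactive X chromosome, was at 4.99 to 8.64 FPKM in KO Reserve and 0.015 to 0.802 in WT Reserve. The Y-linked Ddx3y was at 13.6 to 14.2 and 20.8 to 27.9. Outside the reserve set, Xist was at 3.64 to 6.54 FPKM in KO Ctrl and 2.46 to 2.76 in WT. It was at 4.04 to 6.79 in KO Wnt5a and 2.21 to 2.87 in Wnt5a. Ddx3y was at 5.09 to 7.05 in KO Ctrl and 6.72 to 8.47 in WT, which overlapped. It was at 4.82 to 5.97 in KO Wnt5a and 7.83 to 9.35 in Wnt5a. The part of animal sex in the reserve results and in the other genotype differences was not tested.

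**Figure D1:**
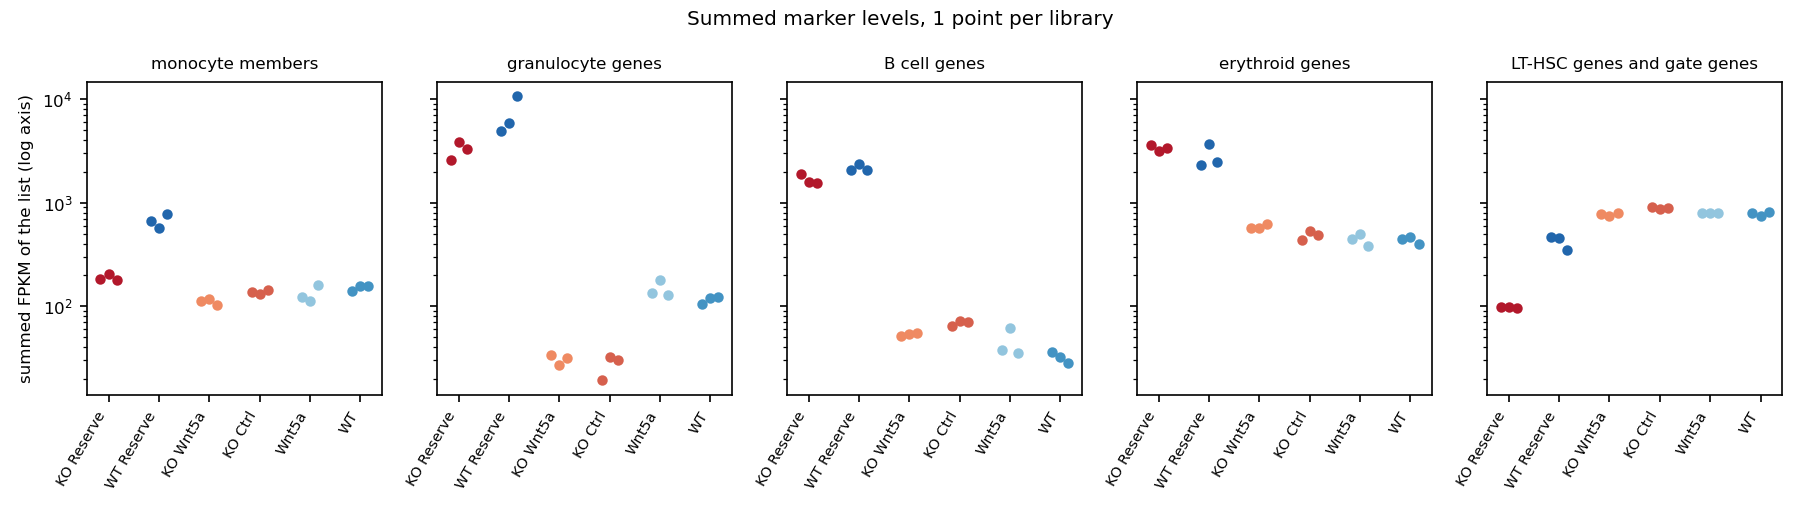
Summed FPKM (log axis) of the 10 monocyte marker genes and of granulocyte, B cell, erythroid and LT-HSC gene lists, with 1 point per library and groups along the horizontal axis. The reserve libraries lie above all others for the monocyte, granulocyte, B cell and erythroid sums and below them for the LT-HSC sum, of which Cd34 is a large part outside the reserve set. Megakaryocyte genes, whose sum is lower in the reserve libraries, are not shown.

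Of the 10 genes, 7 reached 1 FPKM in 3 or more of the 18 libraries, which was the filter on low values, and were tested among 14285 genes, and Lyz1, Cx3cr1 and Fcgr1 did not. The sum of the 10 was 181 to 204 FPKM in KO Reserve, 566 to 780 in WT Reserve, 102 to 117 in KO Wnt5a, 130 to 142 in KO Ctrl, 111 to 159 in Wnt5a and 141 to 158 in WT. Lyz2 made up 88.9% to 94.9% of that sum outside the reserve set. In KO Reserve its share was 46.7% to 62.9% and in WT Reserve 66.6% to 79.1%. Without Lyz2, the other 9 genes together held 69.2 to 96.4 FPKM in KO Reserve and 163 to 189 in WT Reserve, and no library outside the reserve set exceeded 13.9. The table holds no read totals; its lowest values point to a depth of 20400000 to 40700000 fragments, at which 3 fragments on a transcript of 1 kb come to 0.0736 to 0.147 FPKM. This limit takes in counting error alone, since fragments copied by amplification do not count as separate molecules.

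**Figure D2:**
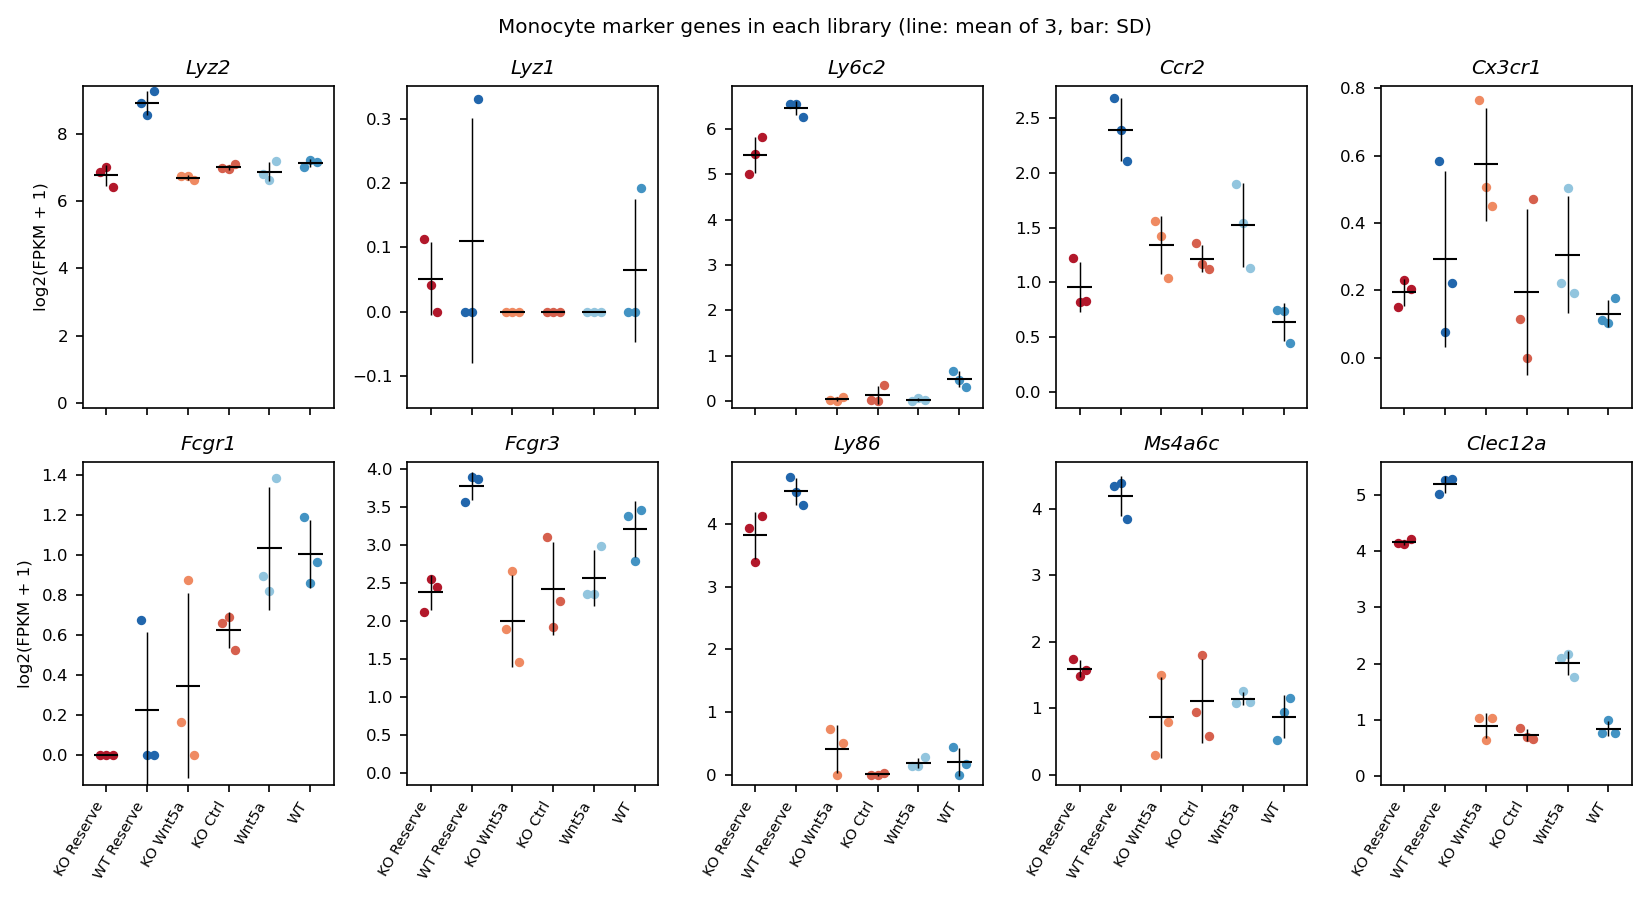
Level of each monocyte marker gene as log2(FPKM + 1) in each of 3 libraries per group (points), with the mean (line) and SD (bar); each panel has its own scale. Ly6c2, Ly86 and Clec12a are high in both reserve groups, while Lyz2, Ccr2, Fcgr3 and Ms4a6c are high in WT Reserve and not, or much less, in KO Reserve.

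The order of the genes by FPKM, which is scaled to transcript length, differed between the sets. In WT Reserve it ran from Lyz2 (493 ± 120 FPKM, SD, n = 3 here and below) through Ly6c2 (86.6 ± 9.22), Clec12a (35.5 ± 3.77) and Ly86 (22.0 ± 3.5) to Ms4a6c (17.5 ± 3.51), Fcgr3 (12.7 ± 1.71) and Ccr2 (4.33 ± 1.06). The ranges of Ly86, Ms4a6c and Fcgr3 touched one another in that order, and those of the other neighbours did not. In KO Reserve the order was Lyz2 (110 ± 22.6), Ly6c2 (42.8 ± 12), Clec12a (16.8 ± 0.555), Ly86 (13.4 ± 3.53), Fcgr3 (4.23 ± 0.784), Ms4a6c (2.02 ± 0.266) and Ccr2 (0.961 ± 0.327), and the ranges of Clec12a and Ly86 overlapped. In WT, Lyz2 (139 ± 10.5) and Fcgr3 (8.43 ± 2.23) were the 2 highest, and each other gene averaged 1.01 FPKM or less, with overlapping neighbours in most steps of the order. Lyz2 and Fcgr3 also led the order in KO Wnt5a, KO Ctrl and Wnt5a.

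The first question is what loss of DERARE changed in the reserve libraries. All 7 tested monocyte markers were lower in KO Reserve than in WT Reserve, in libraries that did not overlap for any of them. The differences ran from 0.70 to 2.60 on the log2(FPKM + 1) scale, which understates the change of low genes. They were called with limma at a Benjamini-Hochberg adjusted p below 0.05. By the same rule 29.3% of all tested genes were lower and 41.3% changed in either direction, and 30.7% were lower without overlap. The median difference over the 10 genes was -1.03, against -0.17 over all tested genes. Ly6c2 and Ly86 reached 1 FPKM in the 6 reserve libraries alone and passed the filter through them.

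Among the lysozymes, Lyz2 was at 116, 128 and 84.4 FPKM in KO Reserve, against 484, 377 and 617 FPKM in WT Reserve. The lowest WT Reserve library was far above the highest KO Reserve library, and the KO Reserve values lay within or below the range of the libraries outside the reserve set. Lyz2 fell by 2.15 on the log2 scale (SE 0.17, adjusted p = 1.56e-07). Lyz1 was at 0.081, 0.029 and 0 FPKM in KO Reserve and at 0, 0 and 0.257 in WT Reserve, so it was hardly detected where its neighbour was highest. Lyz1 transcripts share 16.1% of their stretches of 50 bases with Lyz2, and the submitters' handling of such reads is not given in the sources used here.

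Ly6c2, the classical monocyte antigen, was at 31.1, 42.3 and 55.1 FPKM in KO Reserve, against 91.8, 92 and 75.9 FPKM in WT Reserve. It fell by 1.03 (SE 0.18, adjusted p = 0.00022), and this call ended with a pseudocount of 0.1 in place of 1 (-1.05, adjusted p = 0.0562; range over the alternatives 7.76e-05 to 0.0562). Its close paralog Ly6c1, with which Ly6c2 shares 30.8% of its stretches of 50 bases, was far lower, at 0.582 ± 0.425 FPKM in KO Reserve and 2.31 ± 0.529 in WT Reserve. Ly6c1 reached 1 FPKM in the WT Reserve libraries alone and passed the filter through them. A fall was thus bound to appear, and its difference of -1.09 is given without a test.

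Ccr2, the receptor for monocyte exit from marrow, was at 1.34, 0.763 and 0.781 FPKM in KO Reserve, against 5.42, 4.27 and 3.31 FPKM in WT Reserve, a fall of 1.44 (SE 0.21, adjusted p = 5.4e-05). The KO Reserve libraries were close to the levels outside the reserve set. The ligand gene Ccl2 was at 0.181 ± 0.0276 FPKM in KO Reserve and, per library, at 0, 0.252 and 0.447 in WT Reserve. Cx3cr1 was low in both, with 0.110, 0.172 and 0.152 FPKM in KO Reserve and 0.498, 0.054 and 0.166 in WT Reserve. The annotated Cx3cr1 gene overlaps 5 other genes (Wdr48, Gorasp1, Ttc21a, Csrnp1 and Xirp1), so its low values cannot be assigned to it with certainty in unstranded libraries.

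Of the Fc receptors, Fcgr3 was at 3.35, 4.86 and 4.47 FPKM in KO Reserve, against 10.8, 13.8 and 13.6 FPKM in WT Reserve, a fall of 1.4 (SE 0.32, adjusted p = 0.00212). Fcgr1 was listed at 0 in all 3 KO Reserve libraries and at 0.594, 0 and 0 FPKM in WT Reserve. The inhibitory receptor gene Fcgr2b, which shares 10.2% of the Fcgr3 stretches of 50 bases, fell as well, with 3.58 ± 1.31 FPKM in KO Reserve and 9.32 ± 2.41 in WT Reserve (-1.19, SE 0.34, adjusted p = 0.00962). Fcer1g, the signalling chain that Fcgr1 and Fcgr3 need at the surface, was at 57.3 to 74.1 FPKM in KO Reserve and 151 to 199 in WT Reserve (-1.42, SE 0.19, adjusted p = 2.41e-05).

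Ly86, which encodes the Cd180 partner MD-1, had the smallest difference of the 7. It was at 14.2, 9.55 and 16.5 FPKM in KO Reserve, against 25.7, 21.7 and 18.7 FPKM in WT Reserve (-0.70, SE 0.21, adjusted p = 0.0127). The call ended with quantile normalization (-0.41, adjusted p = 0.147), median-ratio scaling (-0.48, 0.0761), a pseudocount of 0.1, a mean of at least 5 FPKM and a fit of the compared libraries alone, and also without WT Reserve replicate 1 (-0.59, 0.0572) or KO Reserve replicate 2 (-0.49, 0.0833). Cd180 itself was at 1.33 ± 0.271 FPKM in KO Reserve and 2.86 ± 0.995 in WT Reserve (-0.70, SE 0.28, adjusted p = 0.0555). Tlr4, the receptor of the related MD-2, fell (-1.10, SE 0.21, adjusted p = 0.000435), and Ly96, which encodes MD-2, had -0.42 (SE 0.18, adjusted p = 0.0655).

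Ms4a6c had the largest difference of the 7. It was at 2.32, 1.8 and 1.96 FPKM in KO Reserve, against 19.2, 19.8 and 13.4 FPKM in WT Reserve (-2.60, SE 0.30, adjusted p = 5.72e-06). An antisense transcript, BE692007, overlaps it and cannot be told apart from it without strand. The paralog Ms4a6b, with 6.08% of the Ms4a6c stretches of 50 bases in common, was at 3.47 ± 0.421 FPKM in KO Reserve and 23.3 ± 4.08 in WT Reserve (-2.43, SE 0.26, adjusted p = 2.59e-06). Clec12a was at 16.6, 16.4 and 17.5 FPKM in KO Reserve, against 31.1, 37.3 and 38.0 FPKM in WT Reserve, a fall of 1.03 (SE 0.15, adjusted p = 4.75e-05) with little spread in either group.

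The markers did not vary together among the WT Reserve libraries. Replicate 3 had the highest Lyz2 level, 617 FPKM, and the highest granulocyte sum, 10800, with S100a8 at 3900, Chil3 at 303 and Itgam at 4.37. Primary granule genes of the same list were lowest in that library, with Elane at 119 FPKM (284 and 306 in the other WT Reserve libraries), Prtn3 at 99.9 (185 and 178), Ctsg at 25.3 (107 and 112) and Mpo at 95.1 (186 and 112). The same library had the lowest levels of Ly6c2 (75.9), Ccr2 (3.31), Ly86 (18.7) and Ms4a6c (13.4). Chil3 and Itgam are expressed by neutrophils as well as monocytes, and Lyz2 also marks both. The part of granulocyte transcripts in the fall of Lyz2 was not tested.

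A list of other monocyte and macrophage genes moved in the same direction in this comparison. Of its 50 genes with values, 36 were tested, of which 26 fell and 3 rose, with a median of -0.86 over the 50. Ly6c1, which passed the filter through WT Reserve alone, is counted among those that fell. Clec7a, also counted there (-1.78), and the tested genes Itgam and Klf4 would not have passed the filter without the WT Reserve libraries. A fall of these genes was thus favoured in advance. The largest differences, besides Ms4a6b, were in Chil3, a chitinase-like protein gene (40.2 ± 25.2 FPKM in KO Reserve and 200 ± 88.6 in WT Reserve, -2.37, SE 0.31, adjusted p = 1.7e-05), the chemokine gene Ccl6 (-2.27, SE 0.52, adjusted p = 0.00291) and Spi1, which encodes PU.1 (23.6 ± 9.32 and 102 ± 8.85, -2.14, SE 0.20, adjusted p = 9.19e-07). Adgre1, which encodes the macrophage antigen F4/80, did not exceed 0.320 FPKM in any reserve library.

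Lists of other cells moved too, beside 29.3% of all tested genes that were lower. Of 15 granulocyte genes 10 fell and none rose, with a median of -1.11. Of 7 tested dendritic cell genes 6 fell and 1 rose, with summed levels of 96.5 to 132 FPKM in KO Reserve and 399 to 549 in WT Reserve. Of 12 tested LT-HSC and gate genes 11 fell, with a median of -2.04 over the list. Of 4 tested T and NK cell genes 3 fell, among them Klrb1c, which passed the filter through WT Reserve alone and was bound to fall. Of 7 tested B cell genes 2 fell, about the share of all tested genes, and of 9 erythroid genes 3 rose and 1 fell. The monocyte markers therefore fell alongside granulocyte, dendritic cell, LT-HSC and gate genes, and the part of cell makeup in each difference was not tested. The shift of all genes by -0.17 became 0.03 with quantile normalization and 0.00 with median-ratio scaling, and the called genes split into 1708 higher and 4191 lower, or 3154 and 2764 with quantile normalization. All 7 monocyte markers were lower under both, and 6 stayed below the threshold, with Ly86 the exception.

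**Figure D3:**
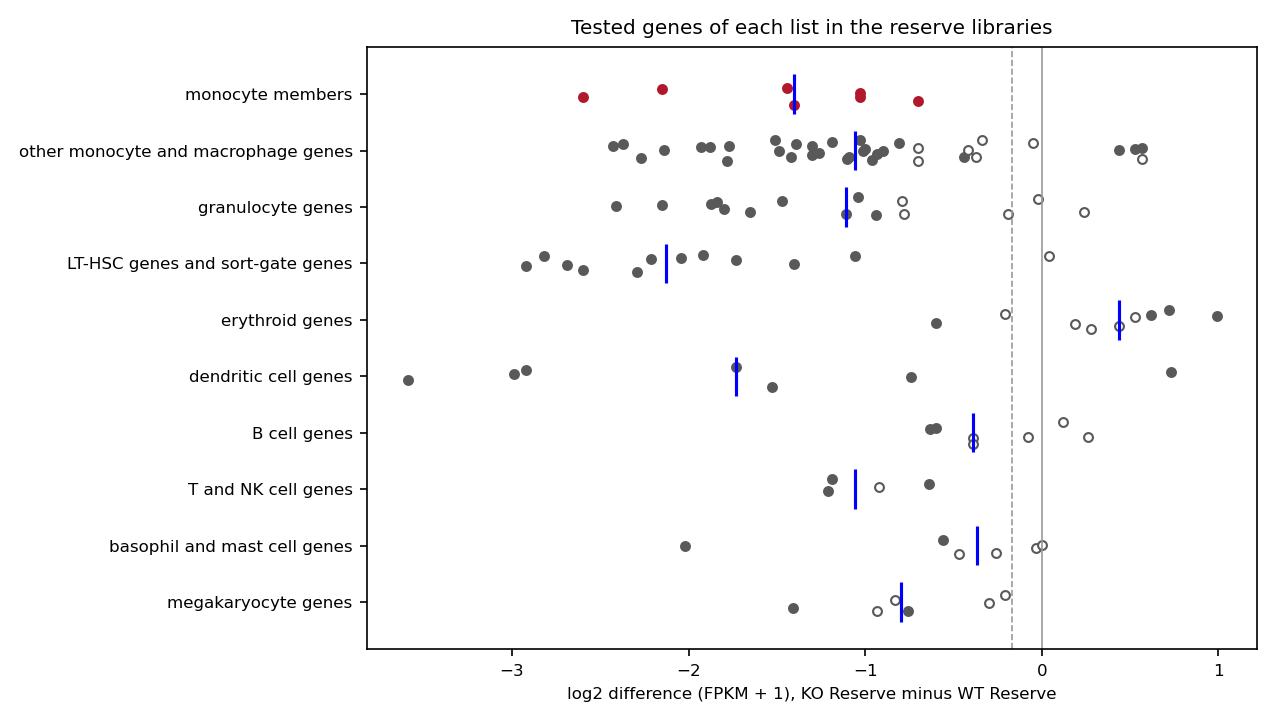
Log2 difference on the FPKM + 1 scale, KO Reserve minus WT Reserve, for every tested gene of each list (1 point per gene, filled where the adjusted p was below 0.05), with the list's median over tested genes as a blue line and the median of all tested genes (-0.17) dashed. All 7 tested monocyte marker genes lie left of 0, between -2.60 and -0.70.

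Several monocyte markers were also higher with the reserve label. Of the 7 tested genes, 6 were called higher in WT Reserve than in WT, where 30.8% of all tested genes were higher and 27.9% lower, and 3 in KO Reserve than in KO Ctrl, where 24.8% were higher and 40.4% lower. Ly6c2 and Ly86 are among both counts but passed the filter through the reserve libraries alone, so that a difference for them was bound to appear. Without these genes the counts were 4 of 5 in wild type (Lyz2, Ccr2, Ms4a6c and Clec12a) and 1 of 5 in the knockout (Clec12a). These contrasts set the reserve libraries against the others as sets, with the granulocyte and B cell sums given above moving alongside and the megakaryocyte sum moving the other way.

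Ly6c2, with 0.585, 0.388 and 0.243 FPKM in WT, was 5.96 higher on the log2 scale in WT Reserve. In KO Ctrl it was at 0.016, 0.009 and 0.285 FPKM, and KO Reserve was 5.28 higher. Ly86 was at 0.362, 0 and 0.136 FPKM in WT and at 0, 0 and 0.027 in KO Ctrl. Its differences were 4.31 between WT Reserve and WT and 3.81 between KO Reserve and KO Ctrl, and for the reason above neither gene is given a test here. Clec12a was at 0.705, 1.0 and 0.701 FPKM in WT and at 0.804, 0.616 and 0.580 in KO Ctrl, and rose by 4.34 in WT Reserve and 3.42 in KO Reserve (SE 0.15 each, adjusted p = 3.93e-13 and 4.56e-12). For these 3 genes every reserve library of a genotype was above every library of its comparison group.

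Lyz2, Ccr2 and Ms4a6c were higher with the reserve label in wild type. Lyz2 was at 127, 148 and 141 FPKM in WT and rose by 1.8 in WT Reserve (SE 0.17, adjusted p = 1.51e-07). It was at 125, 122 and 135 FPKM in KO Ctrl, beside 116, 128 and 84.4 in KO Reserve (-0.23, SE 0.17, adjusted p = 0.246). Ccr2 was at 0.674, 0.671 and 0.358 FPKM in WT and rose by 1.75 in WT Reserve (SE 0.21, adjusted p = 2.12e-06). In the knockout the difference was -0.26 (SE 0.21, adjusted p = 0.296). Ms4a6c was at 0.432, 0.912 and 1.23 FPKM in WT and rose by 3.32 in WT Reserve (SE 0.30, adjusted p = 7.22e-08). It was at 0.922, 2.48 and 0.496 FPKM in KO Ctrl (0.49 in KO Reserve, SE 0.30, adjusted p = 0.168), and without KO Ctrl replicate 2 this difference was called (0.83, adjusted p = 0.0193).

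The Fc receptors had another pattern. In all, 8 of the 10 genes, Ly6c2 and Ly86 among them, did not overlap between WT Reserve and WT, where 33.6% of all tested genes were higher and 30.4% lower without overlap, and 4 did not between KO Reserve and KO Ctrl, where the shares were 25.9% and 41.0%. Fcgr3 was at 9.37, 5.89 and 10 FPKM in WT, where it did not overlap with WT Reserve yet missed the threshold (0.56, SE 0.32, adjusted p = 0.138). It was at 7.62, 2.77 and 3.78 FPKM in KO Ctrl, beside -0.05 for KO Reserve (SE 0.32, adjusted p = 0.9). Fcgr1, below the filter, was the one gene of the 10 with lower values in the reserve libraries of both genotypes without overlap. It was listed at 0 in KO Reserve, against 0.578, 0.613 and 0.436 FPKM in KO Ctrl, and at 0.594, 0 and 0 in WT Reserve, against 1.28, 0.811 and 0.952 in WT. Its partner chain Fcer1g was likewise lower, at 66.7 ± 8.61 FPKM in KO Reserve and 307 ± 68.0 in KO Ctrl, and at 181 ± 25.8 in WT Reserve and 619 ± 88.4 in WT. Lyz1 and Cx3cr1, also below the filter, overlapped between reserve and other libraries in both genotypes: in KO Ctrl, Lyz1 was listed at 0 and Cx3cr1 was at 0 to 0.386 FPKM, and in WT they were at 0 to 0.142 and 0.074 to 0.130.

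The wider list of monocyte and macrophage genes did not move one way with the reserve label. Of its 36 tested genes, 19 were higher and 10 lower in WT Reserve against WT, and 15 were higher and 15 lower in KO Reserve against KO Ctrl. The medians over its 50 genes were 0.37 and 0.12, beside 0.06 and -0.19 over all tested genes. Of the 36, 9 passed the filter only through reserve libraries, and the other 27 split into 10 higher and 10 lower in wild type and 8 higher and 15 lower in the knockout. The summed level of the list was 1030 to 1120 FPKM in KO Reserve and 1590 to 1800 in KO Ctrl, and 2350 to 2900 in WT Reserve and 2270 to 2730 in WT. The largest called differences in wild type were in Chil3, Plac8, the interferon-induced membrane protein gene Ifitm6 and Ccl6. Plac8, a gene of myeloid and lymphoid cells, was at 762 ± 138 FPKM in WT Reserve and 18.5 ± 1.30 in WT (5.27, SE 0.16, adjusted p = 8.33e-14). Chil3, Ifitm6 and Ccl6 did not exceed 0.337 FPKM in any WT library and passed the filter through the reserve libraries, where they averaged 200 ± 88.6, 24.7 ± 11.5 and 28.1 ± 16.8 FPKM in WT Reserve. In the knockout the largest, besides Chil3, were in Plac8 (395 ± 13.8 FPKM in KO Reserve and 10.5 ± 1.47 in KO Ctrl, 5.11, SE 0.16, adjusted p = 7.86e-14), Tyrobp, the adaptor of several myeloid receptors (96.6 ± 8.35 and 2.30 ± 1.02, 4.93, SE 0.20, adjusted p = 1.47e-12), and the chemokine gene Ccl9 (24.6 ± 0.906 and 0.242 ± 0.314, 4.39, SE 0.26, adjusted p = 2.94e-10).

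The genotype difference, knockout minus wild type, was more negative in the reserve set than outside it for 5 of the 7 tested genes. In this test of the interaction 22.9% of all tested genes were more negative. The difference of differences was -2.83 for Ms4a6c (SE 0.42, adjusted p = 0.000134), -2.03 for Lyz2 (SE 0.24, adjusted p = 2.17e-05), -2.01 for Ccr2 (SE 0.30, adjusted p = 0.000124), -0.92 for Clec12a (SE 0.21, adjusted p = 0.00348) and -0.68 for Ly6c2 (SE 0.25, adjusted p = 0.0491). Ly6c2 lost this call in 15 of 21 alternatives and turned to 0.47 (adjusted p = 0.593) with a pseudocount of 0.1. Clec12a missed it with that pseudocount (-0.83, adjusted p = 0.063). Fcgr3 had -0.61 (SE 0.45, adjusted p = 0.32) and Ly86 -0.50 (SE 0.29, adjusted p = 0.212). Ly6c2 and Ly86 passed the filter through the reserve libraries alone. Outside them the log2(FPKM + 1) scale understates any genotype difference of these genes, so their interaction largely repeats the reserve difference.

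**Figure D4:**
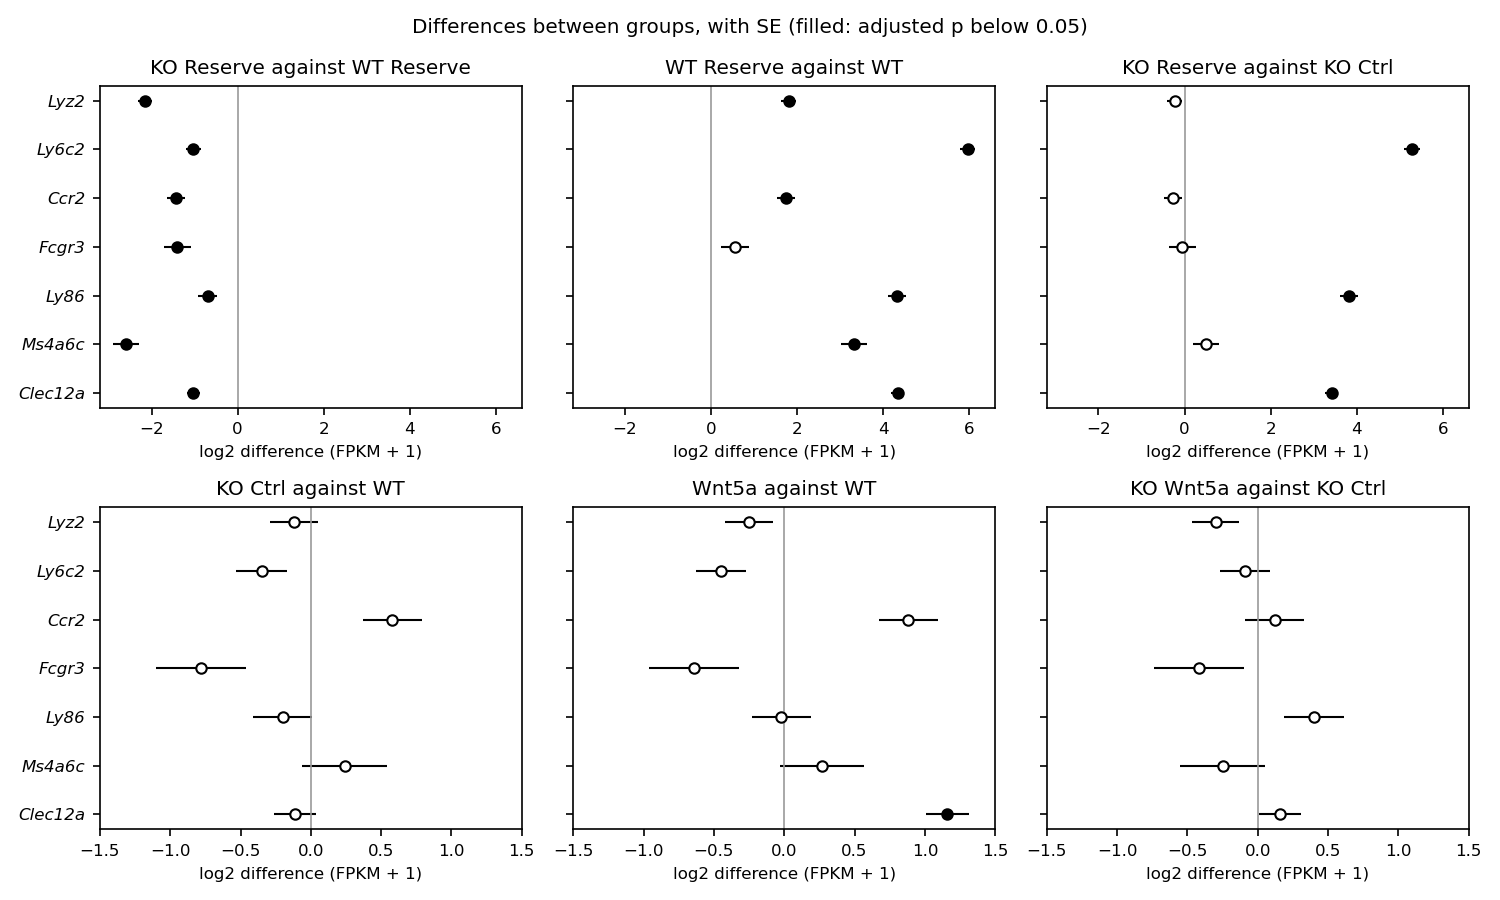
Log2 differences (FPKM + 1) of the 7 tested monocyte marker genes in 6 comparisons, with SE as bars and filled points where the adjusted p was below 0.05; the upper panels share a wider axis than the lower ones. All 7 points are filled in the KO Reserve panel against WT Reserve, 6 for WT Reserve against WT and 3 for KO Reserve against KO Ctrl, with Ly6c2 and Ly86, which passed the filter through the reserve libraries, among both. Clec12a in Wnt5a against WT is the one filled point below.

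Outside the reserve set, KO Ctrl against WT asks what loss of DERARE changed in LT-HSC. limma called 0 of the 7 tested genes at the adjusted threshold, against 2.65% of all tested genes in either direction, and 2 of the 7 had an unadjusted p below 0.05. Shares of all tested genes at the unadjusted threshold were not computed, here or below, so such counts have no background. Lyz2 averaged 127 ± 6.55 FPKM in KO Ctrl and 139 ± 10.5 in WT (-0.12, SE 0.17, adjusted p = 0.786). Ccr2 was at 1.56, 1.25 and 1.18 FPKM in KO Ctrl, against 0.674, 0.671 and 0.358 in WT, so that all knockout libraries were higher (0.58, SE 0.21, unadjusted p = 0.0147, adjusted p = 0.159). By that measure 15.9% of all tested genes were higher without overlap. With replicate number as a block the adjusted p for Ccr2 was 0.0461. Fcgr3 averaged 4.72 ± 2.56 FPKM in KO Ctrl and 8.43 ± 2.23 in WT, and the groups overlapped (-0.78, SE 0.32, unadjusted p = 0.0247, adjusted p = 0.204). Library weights took it to -0.95 with an adjusted p of 0.0499.

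Ly6c2 differed by -0.35 between KO Ctrl and WT (SE 0.18, adjusted p = 0.319), at levels below 1 FPKM in each library. The other 3 tested genes had -0.20 (Ly86), 0.24 (Ms4a6c) and -0.11 (Clec12a). Fcgr1, untested, had lower values in KO Ctrl than in WT without overlap, as given above, where 11.4% of all tested genes were lower without overlap. Lyz1 was listed at 0 in all KO Ctrl libraries and was at 0, 0 and 0.142 FPKM in WT. Cx3cr1 was at 0.082, 0 and 0.386 FPKM in KO Ctrl and at 0.081, 0.074 and 0.130 in WT.

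Other genes of the monocyte list did change in KO Ctrl. Of 36 tested, 8 fell and none rose, beside 1.12% of all tested genes that fell. The 4 largest changes were in the chemokine genes Ccl9 (0.242 ± 0.314 FPKM in KO Ctrl and 6.44 ± 1.87 in WT, -2.58, SE 0.26, adjusted p = 4.79e-05) and Ccl2 (1.73 ± 1.01 and 13 ± 10.5, -2.18, SE 0.41, adjusted p = 0.01), the galectin gene Lgals3 (1.96 ± 1.28 and 12.8 ± 2.60, -2.31, SE 0.28, adjusted p = 0.00022) and Tyrobp (2.30 ± 1.02 and 12.1 ± 1.60, -2.03, SE 0.20, adjusted p = 2.22e-05). Relatives of the Fc receptor genes were among them: Fcgr2b fell to 2.32 ± 0.775 FPKM in KO Ctrl, against 12.3 ± 2.08 in WT (-2.02, SE 0.34, adjusted p = 0.00421). Fcer1g fell by 1.02 (SE 0.19, adjusted p = 0.00741).

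Genes of other cells also differed between KO Ctrl and WT. Summed granulocyte transcripts were at 19.2 to 32.5 FPKM in KO Ctrl and 104 to 123 in WT, through Mpo (0.010 to 0.273 FPKM in KO Ctrl and 53.7 to 65.4 in WT) and Ctsg (listed at 0 in KO Ctrl and 25.5 ± 1.81 in WT). Without these primary granule genes the sums were 19.0 to 32.5 FPKM in KO Ctrl and 26.6 to 33.2 in WT. Of the 15 granulocyte genes these fell and S100a9 rose (2.51 ± 1.30 and 0.260 ± 0.273, 1.43, SE 0.36, adjusted p = 0.0472), with a median of -0.04. Of 6 basophil and mast cell genes 3 fell (Mcpt8, Cpa3 and Fcer1a) and none rose, and of 7 tested B cell genes 3 rose and none fell, with summed B cell levels of 64.2 to 71.8 FPKM in KO Ctrl and 28.3 to 36.4 in WT. Megakaryocyte transcripts summed to 11500 to 19800 FPKM in KO Ctrl and 20900 to 30800 in WT, with 1 of 6 genes lower. The part of these cells in the monocyte gene differences was not tested.

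In wild-type cells, the Wnt5a comparison singled out Clec12a. It was at 3.26, 3.5 and 2.40 FPKM in Wnt5a, against 0.705, 1.0 and 0.701 FPKM in WT, and the groups did not overlap. The rise of 1.16 (SE 0.15, adjusted p = 0.00295) is a 2.24-fold difference on the FPKM + 1 scale. It was 1 of 6 genes called higher among 14285, or 0.0420%, and the only one of the 7 tested monocyte markers to be called. The call ended when only the libraries of Wnt5a and WT were fitted (1.16, adjusted p = 0.0916; range over the alternatives 2.33e-05 to 0.0916), and held without the 6 reserve libraries (adjusted p = 0.0318).

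Ccr2 was at 2.72, 1.92 and 1.19 FPKM in Wnt5a, against 0.674, 0.671 and 0.358 in WT, again without overlap, where 11.7% of all tested genes were higher without overlap. Its difference of 0.88 (SE 0.21, unadjusted p = 0.000672) had an adjusted p of 0.337, which became 0.00215 with library weights and 0.0429 with the replicate block. Ly6c2 was lower in Wnt5a without overlap, at 0, 0.046 and 0.024 FPKM against 0.585, 0.388 and 0.243 FPKM in WT (-0.45, SE 0.18, adjusted p = 0.545), beside 9.71% of all tested genes that were lower without overlap. Cx3cr1, below the filter, was at 0.165, 0.419 and 0.143 FPKM in Wnt5a and 0.081, 0.074 and 0.130 in WT. Fcgr1 was at 0.860, 0.763 and 1.61 FPKM in Wnt5a and 1.28, 0.811 and 0.952 in WT, and Lyz1 was listed at 0 in all Wnt5a libraries and 2 of the 3 WT libraries. Lyz2 had -0.25 (adjusted p = 0.776), Fcgr3 -0.64 (0.638), Ms4a6c 0.27 (0.887) and Ly86 -0.02 (1). Of the 36 other monocyte genes tested, limma called 0 at the adjusted threshold, and 9 had an unadjusted p below 0.05. The share of all tested genes below that unadjusted threshold was not computed, so this count is not read as a difference. Basophil and mast cell transcripts summed to 128 to 227 FPKM in Wnt5a and 75.0 to 84.4 in WT, with 2 of 6 genes higher, and their part in the Clec12a difference was not tested. Of the 6, Prss34 passed the filter through the Wnt5a libraries alone, so that a difference for it was bound to appear.

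In knockout cells no difference with Wnt5a passed the test for the monocyte markers. limma called 0 of the 7 tested genes in KO Wnt5a against KO Ctrl, against 1.02% of all tested genes, and none had an unadjusted p below 0.05. Clec12a was at 1.04, 0.554 and 1.04 FPKM in KO Wnt5a, against 0.804, 0.616 and 0.580 FPKM in KO Ctrl (0.16, SE 0.15, adjusted p = 0.792). Lyz2 was at 106, 106 and 96.9 FPKM in KO Wnt5a, against 125, 122 and 135 FPKM in KO Ctrl, without overlap (-0.30, SE 0.17, adjusted p = 0.577); 6.76% of all tested genes were lower without overlap. Ccr2 averaged 1.56 ± 0.458 FPKM in KO Wnt5a and 1.33 ± 0.205 in KO Ctrl, Fcgr3 3.25 ± 1.84 and 4.72 ± 2.56, and Ms4a6c 0.925 ± 0.814 and 1.30 ± 1.05. Ly86 was at 0.660, 0 and 0.433 FPKM in KO Wnt5a and at 0, 0 and 0.027 in KO Ctrl (0.40, SE 0.21, adjusted p = 0.518). Ly6c2 was at 0.019, 0.010 and 0.066 FPKM in KO Wnt5a and at 0.016, 0.009 and 0.285 in KO Ctrl (-0.09, SE 0.18, adjusted p = 0.924). Of the genes below the filter, Cx3cr1 was at 0.700, 0.421 and 0.366 FPKM in KO Wnt5a and at 0.082, 0 and 0.386 in KO Ctrl, Fcgr1 at 0.120, 0.831 and 0 in KO Wnt5a and at 0.578, 0.613 and 0.436 in KO Ctrl, and Lyz1 was listed at 0 in every library of both groups.

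Of the 36 other monocyte genes tested, Tyrobp rose to 16.6 ± 1.84 FPKM in KO Wnt5a, against 2.30 ± 1.02 in KO Ctrl (2.45, SE 0.20, adjusted p = 3.7e-06). F13a1, the coagulation factor XIII A gene of monocytes and platelets, fell by 2.08 (SE 0.25, adjusted p = 0.000254), and Cebpb, a C/EBP factor of monocytes, fell to 18.2 ± 0.894 FPKM in KO Wnt5a, against 68.1 ± 11.8 in KO Ctrl (-1.84, SE 0.22, adjusted p = 0.000271). Of 6 basophil and mast cell genes 3 rose and none fell: Mcpt8 averaged 3.31 ± 0.606 FPKM in KO Wnt5a and 0.188 ± 0.326 in KO Ctrl, and Fcer1a 4.99 ± 1.61 and 0.693 ± 0.286. The third, Gata2, which stem cells also express, made up most of the list's sum (127 to 142 FPKM in KO Wnt5a and 52.5 to 78.0 in KO Ctrl). Megakaryocyte transcripts summed to 7350 to 10700 FPKM in KO Wnt5a and 11500 to 19800 in KO Ctrl, with 1 of 6 genes lower. The part of these cells in the 3 differences was not tested.

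The genotypes were also compared with Wnt5a in both. Clec12a was lower in KO Wnt5a than in Wnt5a (0.877 ± 0.280 and 3.05 ± 0.578 FPKM, -1.11, SE 0.15, adjusted p = 0.000534) without overlap, as were 10.2% of all tested genes. It was 1 of 7 tested monocyte markers called, where 1.82% of all tested genes were lower. Basophil and mast cell genes moved with it, 4 of 6 lower and 1 (Gata2) higher, with a median of -1.97. Mcpt8 was at 3.31 ± 0.606 FPKM in KO Wnt5a and 58.4 ± 20.4 in Wnt5a, and Prss34 at 0.008 ± 0.0139 and 36.0 ± 17.6. Prss34 passed the filter through the Wnt5a libraries alone, so that a difference for it was bound to appear. The part of basophil and mast cell genes in the Clec12a difference was not tested. Of 15 granulocyte genes 3 were lower, among them Mpo (0.089 ± 0.126 and 75.9 ± 16.1). The other 6 tested markers ran from -0.56 (Fcgr3, adjusted p = 0.393) through -0.28 (Ms4a6c), -0.18 (Ccr2), -0.17 (Lyz2) and 0.01 (Ly6c2) to 0.22 (Ly86, adjusted p = 0.653). Of those below the filter, Cx3cr1 averaged 0.496 ± 0.179 FPKM in KO Wnt5a and 0.242 ± 0.153 in Wnt5a, Fcgr1 0.317 ± 0.449 and 1.08 ± 0.462, and Lyz1 was listed at 0 throughout. Of the 36 other monocyte genes 6 were lower and 1 higher, the largest called differences being in Ccl9 (-2.50), F13a1 (-1.76), Fcgr2b (-1.69) and Plac8 (-1.25), with adjusted p of 4.54e-05 to 0.0102. The Wnt5a difference itself, knockout minus wild type, was -1.0 for Clec12a (SE 0.21, unadjusted p = 0.000199), with an adjusted p of 0.109 over all genes. limma called 0 of the 7 genes for this interaction, against 0.0700% of all tested genes, and Clec12a and Ccr2 (-0.76, SE 0.30, unadjusted p = 0.0214, adjusted p = 0.728) had an unadjusted p below 0.05. With library weights the Clec12a interaction was -1.09 with an adjusted p of 0.0209. Among the other monocyte genes Tyrobp was called for the interaction (2.09, SE 0.28, adjusted p = 0.00268), with 16 ± 3.87 FPKM in Wnt5a and 12.1 ± 1.60 in WT.

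**Figure D5:**
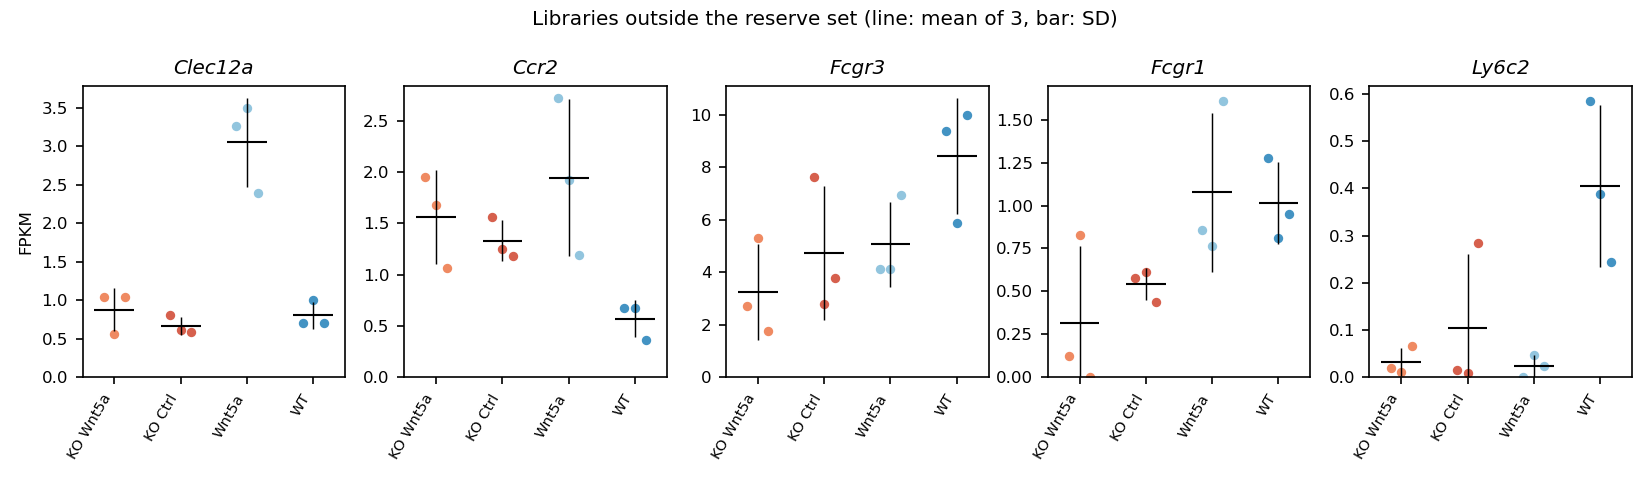
FPKM of Clec12a, Ccr2, Fcgr3, Fcgr1 and Ly6c2 in the 12 libraries outside the reserve set, with 3 points per group, the mean (line) and SD (bar) on linear axes that start at 0. The Wnt5a libraries hold 2.40 to 3.5 FPKM of Clec12a and each other library 1.04 or less, while for Ccr2 the WT libraries lie lowest.

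Among the genes whose profile over the 18 libraries was most like the mean of the 7 tested markers, by Pearson's r of standardized log2 values, were Gm26597 (0.984), the kynurenine monooxygenase gene Kmo (0.983) and the phospholipase family gene Pld4 (0.980). The libraries fall into the reserve set and the rest, and the reserve set into the genotypes, and these values rest on those splits. Within the 12 libraries outside the reserve set r ranged from 0.194 (Gm26597) to 0.657 (Pld4), and within the 6 reserve libraries from 0.970 (Kmo) to 0.996 (Gm26597). Kmo averaged 0.900 ± 0.192 FPKM in KO Reserve and 4.70 ± 1.41 in WT Reserve, and Pld4 averaged 0.858 ± 0.313 FPKM in KO Reserve and 7.18 ± 1.93 in WT Reserve. Gm26597 averaged 0.296 ± 0.0312 FPKM in KO Reserve and 1.86 ± 0.14 in WT Reserve. Each of these genes averaged below 1 FPKM in every group but WT Reserve and would not have passed the filter without it. A high r with markers that are higher in WT Reserve was thus favoured in advance.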

How the data were processed

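LT-HSC sorted into lysis buffer were sequenced as 18 libraries prepared by SMARTer ultra low input synthesis and Nextera, per the labels' protocols, a chemistry that keeps no strand. Per the submitters' processing notes, CASAVA 1.8.2, TopHat2 2.0.10 and Cufflinks were used with mm10; the annotation release and the treatment of reads with several matches are not given in the sources used here. The authors deposited 1 table of FPKM per gene and library; its header names no unit, and FPKM was inferred from the values and from Cufflinks. Counts were not used here, and depth was inferred from the lowest steps of 6730 genes with 1 transcript. Of 44349 identifiers 44022 matched GENCODE M21 on GRCm38, and 16 genes with missing values were left out.

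The log2(FPKM + 1) values of the 14285 genes that reached 1 FPKM in 3 or more libraries were fitted with limma 3.58.1 (trend and robust moderation, 1 mean per group, all 18 libraries) in R 4.3.3. Adjusted p-values are Benjamini-Hochberg over all genes tested in a contrast, and genes were called below 0.05. The model was tested on simulated data. Replicates correlated at 0.9324 to 0.9679; the labels do not say whether they are separate animals, and p-values cover only the spread between these libraries. Named genes are the 10 members, up to 4 called genes of the list of other monocyte genes by size of change, close paralogs, up to 5 genes of a list set beside a result and the genes most alike in profile, of which some are not reported here; other genes (Fcer1g, Cd180, Tlr4, Ly96, Adgre1, Itgam, Xist, Ddx3y) were named after their values were seen. Members and lists were chosen with earlier results of these data known. Shared sequence was measured as the share of 50-base stretches of a gene's transcripts found in a relative's. Alternatives were a pseudocount of 0.1, quantile normalization or median-ratio scaling, omitting the filter or asking for a mean of at least 5 FPKM, limma with library weights or with neither trend nor robust moderation, replicate number as a block, only the compared libraries, leaving out each library, and, chosen after seeing the data, leaving out the 6 reserve libraries. Summaries used Python 3.11.15, numpy 2.4.6, pandas 2.3.3 and matplotlib 3.10.9.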

Additional observations from a re-analysis of the deposited data

Results flagged for a closer look

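For 5 monocyte markers the difference between knockout and wild type was not the same in the reserve set as outside it, by limma's test of the interaction with Benjamini-Hochberg adjustment, as for 22.9% of all tested genes that were more negative in the reserve set. The difference of differences on the log2(FPKM + 1) scale was -2.83 for Ms4a6c (adjusted p = 0.000134), -2.03 for Lyz2 (2.17e-05), -2.01 for Ccr2 (0.000124), -0.92 for Clec12a (0.00348) and -0.68 for Ly6c2 (0.0491). The Ly6c2 call was lost in 15 of 21 alternatives, with 0.47 under a pseudocount of 0.1, and Ly6c2 passed the filter through the reserve libraries alone. For Ccr2 the signs were opposite, with KO Reserve below WT Reserve (-1.44) and KO Ctrl above WT (0.58, not called). Reserve and other libraries also form separate sets by column name and by their content of granulocyte, B cell and LT-HSC transcripts, and the part of these in the interaction was not tested.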

How the results depend on the processing

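Of 371 values of called differences under the alternatives, 346 kept their direction and call, 24 missed the threshold and 1 turned; of 675 values of uncalled ones, 643 stayed uncalled with the same sign, 8 were called and 24 changed sign, and the cause was not tested. The number of monocyte markers called was 4 with a mean of at least 5 FPKM in KO Reserve against WT Reserve, where fewer of the genes are tested. It was 1 with library weights and 1 with the replicate block in KO Ctrl against WT. In Wnt5a against WT it was 4 with library weights, 2 with the replicate block and 0 with only the libraries compared. It was 1 with library weights for the Wnt5a interaction, and 3 with a pseudocount of 0.1 and 2 with a mean of at least 5 FPKM for the interaction of genotype and reserve. Signs turned, without a call, for Ly86 in Wnt5a against WT (0.11 with a pseudocount of 0.1; -0.12 to 0.10 leaving out 1 library), for KO Reserve against KO Ctrl in Lyz2 (0.03 with median-ratio scaling) and Fcgr3 (0.27 with quantile normalization, 0.17 with median-ratio scaling, 0.15 with library weights; -0.31 to 0.29 leaving out 1 library), and for the Wnt5a interaction in Lyz2 (0.02 with library weights; -0.17 to 0.11) and Fcgr3 (-0.11 to 0.56). With a pseudocount of 0.1 the interaction of genotype and reserve was 0.47 for Ly6c2, which had been called, and 0.30 for Ly86. Leaving out 1 library also turned Ms4a6c in KO Ctrl against WT (-0.11 to 0.50), Ly6c2 (-0.15 to 0.03) and Ms4a6c (-0.57 to 0.10) in KO Wnt5a against KO Ctrl, and Ly6c2 (-0.01 to 0.03), Ccr2 (-0.38 to 0.00) and Ms4a6c (-0.60 to 0.00) in KO Wnt5a against Wnt5a. Equal replicate numbers did not pair the libraries: correlations of their deviations from group means ran from -0.0775 to 0.0789. The replicate block changed the calls of Ccr2 in KO Ctrl against WT (adjusted p = 0.0461) and Wnt5a against WT (0.0429), and of Ly6c2 in the interaction of genotype and reserve (-0.68, 0.0618). Leaving out the 6 reserve libraries, chosen after seeing the data, changed no count of called markers. The table without counts limits low genes most: Lyz1, Cx3cr1, Fcgr1 and, outside the reserve set, Ly6c2 and Ly86 did not exceed 1.61 FPKM in any library.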
